A study of Mus musculus with 11 samples.

Results

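Linker histone H1 proteins bind where DNA enters and leaves the nucleosome, and they help chromatin to fold. Most H1 in a dividing cell comes from replication-dependent genes in the large histone cluster, which are transcribed in S phase and whose messages usually end in a stem-loop in place of a poly(A) tail. Replacement H1 genes lie outside the cluster, are expressed throughout the cell cycle as polyadenylated RNA, and are best known, in the case of H1f0, for accumulating as cells leave the cycle and differentiate. The genes described here are the 5 replication-dependent H1 genes Hist1h1a, Hist1h1b, Hist1h1c, Hist1h1d and Hist1h1e, and the 2 replacement genes H1f0 and H1fx. They were found by matching Ensembl identifiers to GRCm38 gene symbols. All 7 members were among the 54838 genes counted, and all 7 passed the expression filter with 16073 genes in all.

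The cells were E14 mouse embryonic stem cells (ESCs), grown in medium with LIF on gelatin. They were transfected with a scramble control siRNA (3 libraries), CMTR1 siRNA 1 (4 libraries) or CMTR1 siRNA 2 (4 libraries), and RNA was collected after 36 h. CMTR1 methylates the ribose of the first transcribed nucleotide next to the mRNA cap, and the study used the siRNAs to ask which transcripts depend on it. Ribosomal RNA was depleted rather than poly(A) RNA selected, so replication-dependent histone RNA without a poly(A) tail could be captured. Each library held between 6738478 and 8382318 reads counted in genes. A level is given as CPM, the counts scaled to library size. The study's methods speak of biological replicates for sequencing, but the labels do not tie these libraries to separate cultures, so the p-values measure the spread between the libraries as deposited. Levels are shares of the RNA of whole cultures, in which fewer cells of a type and less RNA per cell cannot be told apart.

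The targeted gene was not clearly lower in this total RNA. Cmtr1 was at 21.3, 21.7 and 17.9 CPM in control libraries, 21.1, 21.3, 16.2 and 18.0 CPM with siRNA 1, and 15.6, 16.8, 16.5 and 19.5 CPM with siRNA 2, and the groups overlapped. Its log2 fold change was -0.09 ± 0.11 (SE) with siRNA 1 (edgeR adjusted p = 0.743) and -0.25 ± 0.11 with siRNA 2 (edgeR adjusted p = 0.144), so the groups are named here by siRNA. The 8 ESC markers examined were all measured, with summed levels of 1916 to 2019 CPM in control, 1644 to 1810 CPM with siRNA 1 and 1731 to 1808 CPM with siRNA 2. All 8 had a log2 fold change below 0 with each siRNA. At an edgeR adjusted p of at most 0.05, 5 were lower with siRNA 1, beside 1.97% of all genes. With siRNA 2, 3 (Nanog, Esrrb and Zfp42) were lower, beside 3.55% of all genes. Feeder fibroblast markers were sparse, with 5 of 8 past the filter and S100a4 at 0 reads. They summed to 23.3 to 27.8 CPM in control, 24.7 to 28.5 CPM with siRNA 1 and 34.2 to 39.0 CPM with siRNA 2. Of 9 markers of differentiated lineages, 8 passed the filter, and their levels are given below beside H1f0. One library, replicate 3 of siRNA 2, had the lowest level of each of the 5 replication-dependent H1 genes among the siRNA 2 libraries and the highest H1f0 of all 11 libraries, and results that rest on it are given with and without it. In that library 44.3% of the reads listed fell in no annotated gene, against 39.9% and 39.3% in siRNA 2 replicates 1 and 2. Control had 41.2% to 43.2% and siRNA 1 had 41.0% to 43.4%, and siRNA 2 replicate 4 has no such line.

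The members are at 3 places in the GRCm38 genome. The replication-dependent genes lie on chromosome 13, with Hist1h1b at 21779883 to 21780625 (minus strand), Hist1h1d at 23553262 to 23560686 (plus), Hist1h1e at 23620629 to 23622558 (minus), Hist1h1c at 23738808 to 23740367 (plus) and Hist1h1a at 23763666 to 23764406 (plus). H1f0 is at 79028450 to 79030504 on chromosome 15 (plus strand), and H1fx is at 87980421 to 87981637 on chromosome 6 (minus strand). Each is a single exon in the GENCODE annotation. RefSeq now names them H1f1 (Hist1h1a), H1f5 (Hist1h1b), H1f2 (Hist1h1c), H1f3 (Hist1h1d), H1f4 (Hist1h1e), H1f0 and H1f10 (H1fx).

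The feature that separates the 2 classes of message is the histone stem-loop, a hairpin just after the stop codon that is bound by SLBP and directs 3′ end cleavage. It was searched for in the GENCODE transcripts after the stop codon. The 3 sites found are shown because they mark these H1 genes as replication-dependent in sequence as well as in name, with the stem and loop in capitals and 25 bases printed for each.

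Hist1h1c, chr13:23739507-23739531, plus strand: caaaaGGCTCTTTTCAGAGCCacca
Hist1h1d, chr13:23555782-23555806, plus strand: caaacGGCTCTTTTCAGAGCCaccc
Hist1h1e, chr13:23621778-23621802, minus strand: ccaaaGGCTCTTTTCAGAGCCaccc

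The 16 bases of stem and loop were identical in Hist1h1c, Hist1h1d and Hist1h1e, and they began 25, 32 and 41 bases after the stop codon. The annotated exon ran on for 840 bases beyond the stem-loop in Hist1h1c, 4884 bases in Hist1h1d and 1153 bases in Hist1h1e, so reads counted for these genes could come from RNA on either side of the hairpin. No stem-loop was found after the stop codons of H1f0 or H1fx, in 1198 and 369 bases. For Hist1h1b the annotated transcript stopped 0 bases after the stop codon, so that window was not informative. The Hist1h1a transcript stopped 48 bases after it, and no stem-loop was found in those bases. They could have held a stem-loop placed as in Hist1h1c or Hist1h1d, but not one placed as in Hist1h1e.

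The start sites also differed between the classes. Promoters of replication-dependent H1 genes are known for an H1 box, spelled AAACACA here. Closer to the start they carry a CCAAT box and a TATA box. The TATA box was searched as TATAAA and, as a second form that can overlap the first, as TATATA. All of these letters were searched on both strands in the 250 bases before each RefSeq start (GRCm38.p6). The 150 bases before the start are shown for 5 members so that the shared order of the motifs can be seen; capitals mark the motif matches.

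Hist1h1a, chr13:23763518-23763667, plus strand: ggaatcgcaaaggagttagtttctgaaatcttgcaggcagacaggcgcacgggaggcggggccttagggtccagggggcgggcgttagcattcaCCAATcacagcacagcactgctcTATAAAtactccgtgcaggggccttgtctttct
Hist1h1b, chr13:21780626-21780775, minus strand: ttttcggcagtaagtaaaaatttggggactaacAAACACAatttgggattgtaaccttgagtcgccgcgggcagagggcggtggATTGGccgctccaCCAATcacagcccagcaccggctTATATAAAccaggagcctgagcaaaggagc
Hist1h1c, chr13:23738657-23738806, plus strand: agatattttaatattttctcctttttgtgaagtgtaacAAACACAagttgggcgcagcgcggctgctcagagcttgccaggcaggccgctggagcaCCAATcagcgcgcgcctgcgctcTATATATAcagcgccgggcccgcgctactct
Hist1h1e, chr13:23622559-23622708, minus strand: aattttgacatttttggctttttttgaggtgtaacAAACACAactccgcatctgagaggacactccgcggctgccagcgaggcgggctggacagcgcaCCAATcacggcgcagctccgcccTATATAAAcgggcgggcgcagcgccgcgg
H1f0, chr15:79028062-79028211, plus strand: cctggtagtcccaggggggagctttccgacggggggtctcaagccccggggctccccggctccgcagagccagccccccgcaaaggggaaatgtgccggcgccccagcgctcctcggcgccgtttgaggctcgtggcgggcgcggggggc

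For Hist1h1d, the 27 bases around its H1 box (capitals) were as follows.

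Hist1h1d, chr13:23554900-23554926, plus strand: gaggggcaacAAACACAgccacaaggc

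An H1 box was present in Hist1h1b, Hist1h1c, Hist1h1d and Hist1h1e, with its first base 112 to 122 bases before the start, and was not found in Hist1h1a. All 5 replication-dependent genes had a CCAAT match starting 51 to 56 bases before the start and a TATA form that began 26 to 33 bases before it. Farther out than the H1 box, Hist1h1b had another CCAAT match (-168) and Hist1h1d had opposite-strand TATAAA matches (-153 and -145). None of these letters was found in the window of H1f0 or H1fx. Hist1h1t, the testis H1 gene of the same cluster, had an H1 box (-114), a CCAAT match (-65) and the TATATA form (-43), but no TATAAA match. Among 32851 RefSeq promoters of the same length, the H1 box letters were present in 6.25%, CCAAT in 33.85%, a TATA form in 15.6% and all of them together in 0.484%. These matches are descriptions of sequence, and the libraries do not show which of them is used.

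**Figure D1:**
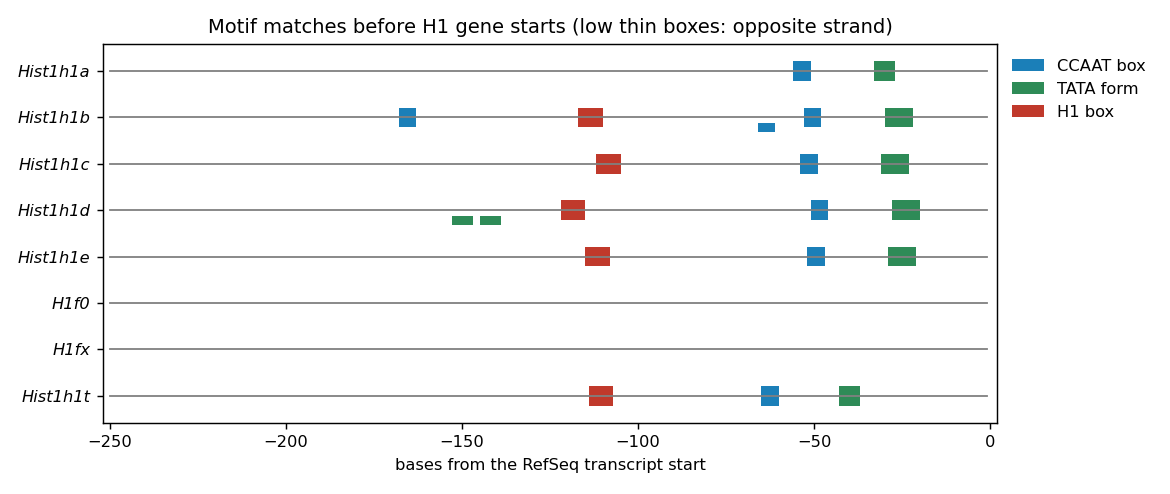
Positions of the H1 box, CCAAT and TATA matches in the 250 bases before the RefSeq start of the 7 members and of Hist1h1t (x axis: bases from the start; full boxes: same strand as the gene; low thin boxes: opposite strand). On the gene's strand, the matches nearest the start sit in the same order in the replication-dependent genes, although Hist1h1a has no H1 box match. Farther out than the H1 box, Hist1h1b has another CCAAT match (-168) and Hist1h1d has opposite-strand TATAAA matches (-153 and -145). The lines of H1f0 and H1fx are empty.

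In control ESCs nearly all H1 reads came from the replication-dependent genes. The 5 summed to 1540 ± 41.1 CPM (SD, n = 3) and the replacement genes to 40.5 ± 2.55 CPM, or 2.56% ± 0.18 of all H1 reads. A longer exon collects more reads, so levels between genes were compared as control CPM per kilobase. With the GENCODE exon lengths, Hist1h1a had the highest level per length (550 ± 9.82 CPM per kilobase), followed by Hist1h1b (330 ± 13.6), Hist1h1c (187 ± 4.51), Hist1h1e (132 ± 0.81), Hist1h1d (46.0 ± 2.51), H1fx (19.3 ± 2.86) and H1f0 (8.27 ± 0.77). The annotated exon of Hist1h1d is 7425 bases long against 776 bases in RefSeq. With RefSeq lengths the order became Hist1h1a (547 CPM per kilobase), Hist1h1d (441), Hist1h1c (403), Hist1h1e (325), Hist1h1b (308), H1fx (22.1) and H1f0 (7.41). Hist1h1a was highest and H1f0 lowest by either length, and the order of the 4 between Hist1h1a and H1fx depended on the annotation. By RefSeq length, Hist1h1e (lowest library 323 CPM per kilobase) and Hist1h1b (highest library 322) were barely apart.

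The summed H1 level differed little between the siRNAs. It was 1581 ± 41.1 CPM in control (1554 to 1628, n = 3), 1572 ± 37.7 CPM with siRNA 1 (1520 to 1610, n = 4) and 1518 ± 70.2 CPM with siRNA 2 (1414 to 1568, n = 4), and the 3 ranges overlapped. Without replicate 3 the siRNA 2 mean was 1552 CPM.

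Each member was tested with edgeR's quasi-likelihood test over all 16073 genes, with Benjamini-Hochberg adjustment over all of them, and a gene was called at an adjusted p of at most 0.05. With siRNA 1, 0 of 7 members were called, beside 4.67% of all genes (2.71% higher and 1.97% lower). Before adjustment 3 members had p under 0.05, and DESeq2 called 1. With siRNA 2, 1 of 7 members was called (H1f0), beside 9.72% of all genes (6.17% higher and 3.55% lower). Between the siRNAs, 1 of 7 was called (Hist1h1c), beside 7.44% of all genes (4.49% higher and 2.96% lower with siRNA 2). Both contrasts with control use the same 3 control libraries. Shares of 0 or 1 in 7 are near these background shares and set the H1 genes apart from other genes in neither direction.

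The median log2 fold change of the members was 0.05 with siRNA 1, against 0.02 for all genes, and -0.04 with siRNA 2, against 0.03 for all genes. Of the 7 members, 3 were below 0 with siRNA 1 and 4 with siRNA 2. For the 5 replication-dependent genes, the 95% intervals of the fold change lay between 0.835 and 1.16 with siRNA 1. With siRNA 2 they lay between 0.858 and 1.09. These intervals are for counts after duplicate removal in the libraries as deposited, where Cmtr1 RNA was not clearly lower. They do not bound the effect of losing CMTR1.

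**Figure D2:**
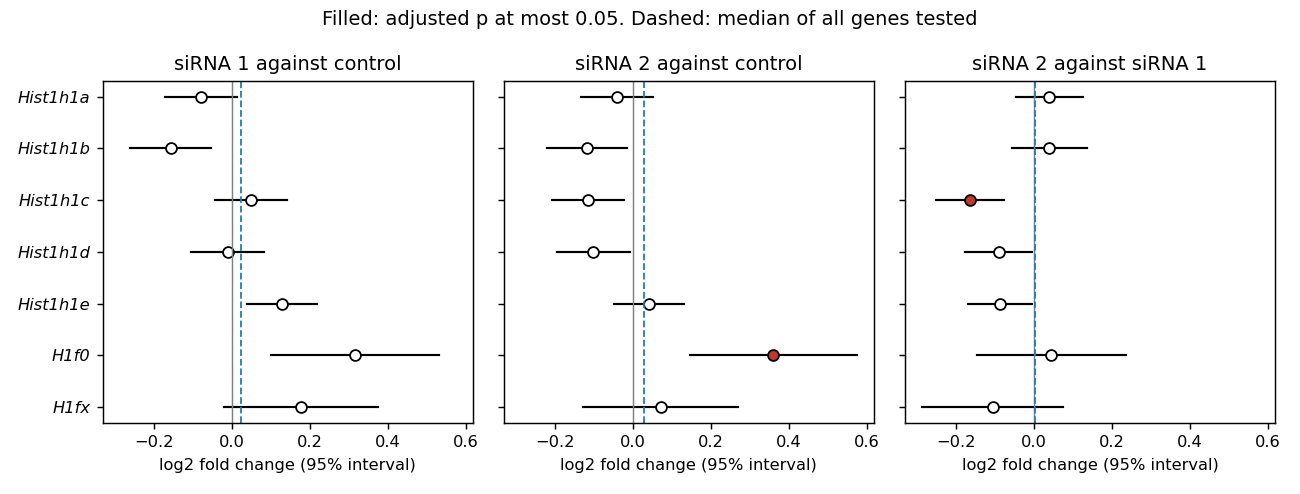
Log2 fold change of each H1 member (points) with its 95% interval (lines) in the 3 comparisons, from edgeR; filled points have an adjusted p of at most 0.05 and the dashed line is the median of all 16073 genes. H1f0 is the only filled member with siRNA 2 against control and Hist1h1c the only one between the siRNAs.

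Hist1h1a encodes an H1 found mainly in proliferating cells and germ cells. Its level was 404.8, 415.4 and 401.5 CPM in control, 370.0, 382.4, 403.2 and 385.5 CPM with siRNA 1, and 410.1, 396.3, 363.1 and 414.2 CPM with siRNA 2. Each siRNA group reached into the control range, siRNA 1 with 1 library. The log2 fold change was -0.08 ± 0.05 with siRNA 1 (edgeR adjusted p = 0.383) and -0.04 ± 0.05 with siRNA 2 (edgeR adjusted p = 0.644).

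Hist1h1b, another H1 of dividing cells, was at 242.9, 255.8 and 235.9 CPM in control and at 199.9, 226.7, 227.3 and 224.0 CPM with siRNA 1, with every siRNA 1 library below every control library. Its log2 fold change with siRNA 1 was -0.16 ± 0.05 (95% interval -0.26 to -0.05), which missed the threshold in the main test (edgeR adjusted p = 0.0641). It passed with TMM factors (-0.18, edgeR adjusted p = 0.033), with DESeq2 (-0.18, DESeq2 adjusted p = 0.0346), in a fit of the 2 groups alone (-0.16, edgeR adjusted p = 0.0362) and with the replicate number as a block (-0.18, edgeR adjusted p = 0.0282). It did not pass with edgeR's exact test (adjusted p = 0.0599) or with Gm26917 left out of library sizes (edgeR adjusted p = 0.0569). With 2 other filters it also did not pass (edgeR adjusted p = 0.0626 and 0.0538). Replicate 1 was the lowest siRNA 1 library, and without it the difference was -0.12 (edgeR adjusted p = 0.2495). Without control replicate 2 it was -0.12 (edgeR adjusted p = 0.335), and without siRNA 1 replicate 3 it was -0.17 (edgeR adjusted p = 0.0496). With siRNA 2 the libraries had 220.2, 234.9, 208.3 and 238.7 CPM and overlapped control (-0.12 ± 0.05, edgeR adjusted p = 0.140).

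Hist1h1c, one of the most widely expressed H1 genes, was called with neither siRNA against control but differed between them. It was at 285.0, 299.1 and 292.6 CPM in control, 295.6, 303.3, 316.8 and 293.8 CPM with siRNA 1, and 276.4, 278.2, 249.1 and 275.4 CPM with siRNA 2. All siRNA 2 libraries were below every library of both other groups. Against control the log2 fold changes were 0.05 ± 0.05 with siRNA 1 (edgeR adjusted p = 0.651) and -0.12 ± 0.05 with siRNA 2 (edgeR adjusted p = 0.112). Hist1h1c was lower with siRNA 2 than with siRNA 1 by a log2 difference of -0.16 ± 0.04 (95% interval -0.25 to -0.08, edgeR adjusted p = 0.0116). Without replicate 3 of siRNA 2, its lowest library, the difference between the siRNAs was -0.13 (edgeR adjusted p = 0.0496).

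Hist1h1d and Hist1h1e encode the other somatic H1 proteins of the cluster. Hist1h1d was at 334.2, 363.2 and 328.4 CPM in control, 332.4, 336.2, 335.7 and 353.5 CPM with siRNA 1, and 325.3, 324.0, 296.6 and 329.2 CPM with siRNA 2. The siRNA 2 libraries were below all siRNA 1 libraries but touched the control range. Its log2 fold change was -0.01 ± 0.05 with siRNA 1 (edgeR adjusted p = 0.944) and -0.10 ± 0.05 with siRNA 2 (edgeR adjusted p = 0.169).

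Hist1h1e was the one replication-dependent member whose fold change was above 0 with both siRNAs. It was at 255.5, 253.6 and 252.4 CPM in control, 269.3, 278.0, 281.8 and 280.8 CPM with siRNA 1, and 260.5, 268.1, 248.7 and 266.8 CPM with siRNA 2. All siRNA 1 libraries were above control, while replicate 3 of siRNA 2 was below it. The log2 fold change was 0.13 ± 0.04 with siRNA 1 (edgeR adjusted p = 0.0854) and 0.04 ± 0.04 with siRNA 2 (edgeR adjusted p = 0.627). Reads of Hist1h1e that also match other genes could be left out of its count. In the 10 files with summary lines, ambiguous reads and reads aligned to more than 1 place were set aside. The Hist1h1e exon overlaps Hist1h2be by 496 bases on the same strand. Of its 75-base words, 28.4% also occur in Hist1h2be, Hist1h1c, Hist1h1d or the pseudogene Gm11398. That share was 6.66% for Hist1h1c, 1.47% for Hist1h1d, and 0 for Hist1h1a and Hist1h1b.

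**Figure D3:**
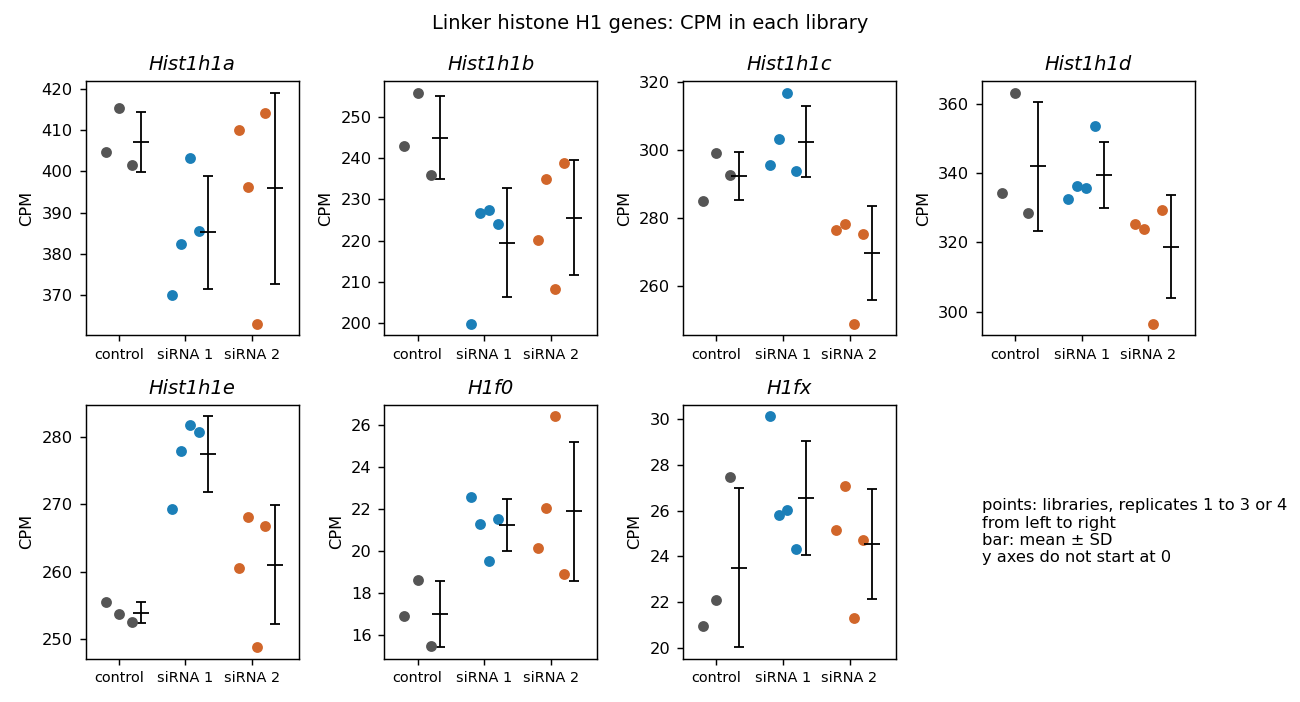
CPM of the 7 H1 genes in each library (y axes: CPM, not from 0; points: libraries of control siRNA, CMTR1 siRNA 1 and CMTR1 siRNA 2, with replicates from left to right; bars: mean ± SD). H1f0 sits at 15.5 to 18.6 CPM in control and at 18.9 CPM or more in every siRNA library, and the siRNA 2 points of Hist1h1c lie below those of both other groups.

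H1f0, the replacement H1 tied to differentiation, was higher with CMTR1 siRNA 2. It was at 16.9, 18.6 and 15.5 CPM in control, 22.6, 21.3, 19.6 and 21.5 CPM with siRNA 1, and 20.2, 22.1, 26.4 and 18.9 CPM with siRNA 2. Every siRNA library was above every control library, although siRNA 2 replicate 4 and control replicate 2 nearly met. With siRNA 2 it was 1.28-fold higher (log2 fold change 0.36 ± 0.11, 95% interval 0.15 to 0.57, edgeR adjusted p = 0.0235). With siRNA 1 it was 1.24-fold control (0.32 ± 0.11, 95% interval 0.10 to 0.53), which missed the threshold (edgeR adjusted p = 0.0819). The siRNAs were not distinguished from each other (0.04 ± 0.09, 95% interval -0.15 to 0.24, edgeR adjusted p = 0.846).

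These H1f0 values rest on 115 to 196 reads per library, and the siRNA 2 call was not stable. It was lost with DESeq2 (0.33, DESeq2 adjusted p = 0.0851) and when replicate 3 of siRNA 2 (0.26, edgeR adjusted p = 0.113), control replicate 1 (0.35, edgeR adjusted p = 0.0661) or control replicate 3 (0.30, edgeR adjusted p = 0.146) was left out. An antisense gene, Gm49544, overlaps H1f0 by 163 bases and had 1 to 5 reads per library. The strand setting of the counting is not given in the sources used here. Since H1f0 is tied to differentiation, markers of differentiated lineages were read beside it. They summed to 69.3 to 78.3 CPM in control, 73.6 to 91.3 CPM with siRNA 1 and 58.5 to 76.1 CPM with siRNA 2. Of the 8 tested, 0 were called in either contrast by edgeR (2 with each siRNA with p under 0.05 before adjustment, 0 by DESeq2), while with the replicate number as a block edgeR called 1 higher with siRNA 1. In the same libraries Col1a1 and Dcn, feeder fibroblast markers, were higher with siRNA 2 and Col3a1 was lower by edgeR, of which DESeq2 called 1. The part of these cell types in the H1f0 values was not tested.

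H1fx, a divergent member of the H1 family, was at 20.9, 22.1 and 27.5 CPM in control, 30.1, 25.8, 26.0 and 24.3 CPM with siRNA 1, and 25.1, 27.1, 21.3 and 24.7 CPM with siRNA 2. The 3 groups overlapped, control replicate 3 being among the highest libraries. Its log2 fold change was 0.18 ± 0.10 with siRNA 1 (edgeR adjusted p = 0.361) and 0.07 ± 0.10 with siRNA 2 (edgeR adjusted p = 0.725). The antisense gene Gm5577 overlaps it by 755 bases and had 23 to 47 reads per library.

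Counting members by whether the groups overlapped gave 3 of 7 separate with siRNA 1 (Hist1h1b lower, Hist1h1e and H1f0 higher), beside 15.5% of all genes. With siRNA 2 it was 2 of 7 (Hist1h1c lower, H1f0 higher), beside 19.4% of all genes. Between the siRNAs, Hist1h1c, Hist1h1d and Hist1h1e were separate and lower with siRNA 2, 3 of 7 beside 11.8%.

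The make-up of the H1 pool was compared within each library. The replacement share of H1 reads was 2.43% to 2.76% in control, 2.83% to 3.47% with siRNA 1 and 2.78% to 3.38% with siRNA 2, so that all 8 siRNA libraries were above the 3 control libraries. H1f0 made up 1.00% to 1.14% of H1 reads in control, 1.21% to 1.48% with siRNA 1 and 1.21% to 1.87% with siRNA 2, with no overlap between control and siRNA libraries. H1fx made up 1.34% to 1.77%, 1.54% to 1.98% and 1.51% to 1.75% in the same order, and its groups overlapped. Ratios between members of the same library do not depend on library size. Among the 10 ratios between the 5 replication-dependent genes, control and siRNA groups did not overlap for 6 with siRNA 1 and 6 with siRNA 2, and 5 did not overlap between the siRNAs. Over all pairs of the 16073 genes, 14.0%, 17.7% and 10.8% of ratios were separate in the same comparisons. Most of those genes have fewer reads than the members. The 10 ratios share genes and are a description, examined after the levels had been seen.

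Hist1h1e was in 3 of the 6 separate ratios with siRNA 1 and in 4 of the 6 with siRNA 2. Hist1h1e per Hist1h1b was 0.991 to 1.07 in control, 1.23 to 1.35 with siRNA 1 and 1.12 to 1.19 with siRNA 2. Hist1h1e per Hist1h1a was 0.611 to 0.631, 0.699 to 0.729 and 0.635 to 0.685, and Hist1h1e per Hist1h1d was 0.698 to 0.768, 0.794 to 0.840 and 0.801 to 0.839, in the same order. Hist1h1e also made up more of the reads of all 7 H1 genes in every siRNA library than in any control library. Its share was 15.6% to 16.4% in control, 17.5% to 17.7% with siRNA 1 and 16.9% to 17.6% with siRNA 2.

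Hist1h1c per Hist1h1a lay on opposite sides of control with the 2 siRNAs. The ratio was 0.704 to 0.729 in control, 0.762 to 0.799 with siRNA 1 and 0.665 to 0.702 with siRNA 2, with no overlap between any of the groups. In absolute terms these shifts were small, since Hist1h1c made up 18.5% ± 0.30 of H1 reads in control, 19.2% ± 0.49 with siRNA 1 and 17.8% ± 0.21 with siRNA 2.

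**Figure D4:**
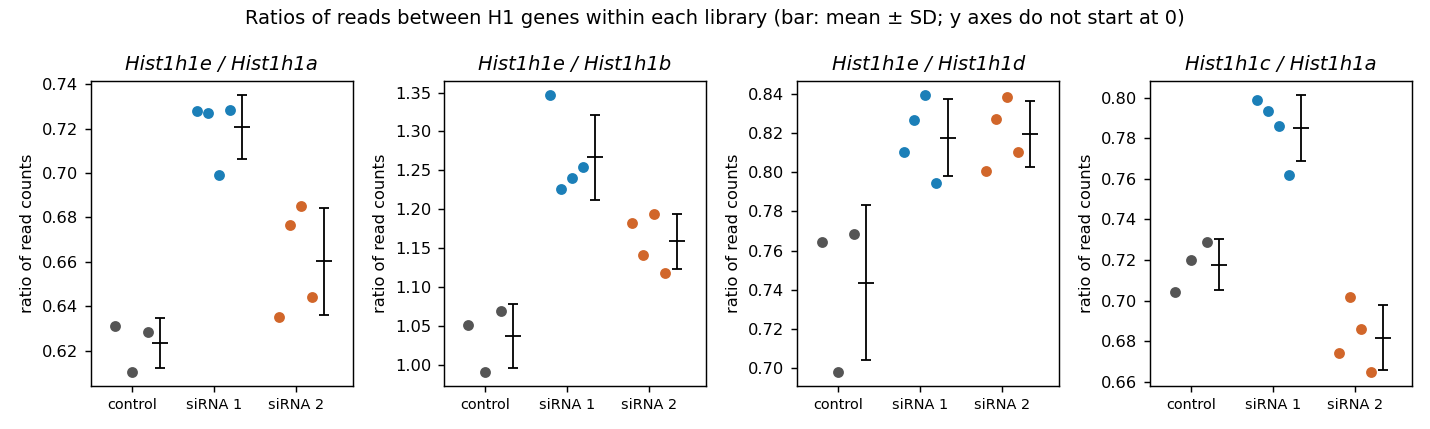
Ratios of reads between pairs of replication-dependent H1 genes within each library (y axes: ratio of counts, not from 0; points: libraries; bars: mean ± SD). The ratios of Hist1h1e to Hist1h1a, Hist1h1b and Hist1h1d are above control in both siRNA groups, and Hist1h1c per Hist1h1a is above control with siRNA 1 and below it with siRNA 2.

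The germline H1 genes are the other branch of the family. Only Hist1h1t, the testis H1 of the cluster, passed the filter, at 9.22 ± 0.45 CPM in control, 11.1 CPM with siRNA 1 and 11.5 CPM with siRNA 2. Its log2 fold changes were 0.26 ± 0.15 (edgeR adjusted p = 0.367) and 0.33 ± 0.14 (edgeR adjusted p = 0.151). The oocyte gene H1foo had 1 read in all libraries together, and the spermatid genes H1fnt and Hils1 had 3 each.

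The replication-dependent core histone genes, of the chromosome 13 cluster and of other chromosomes, give the setting of the replication-dependent H1 genes. Of 61 such genes 52 were tested. None was called with siRNA 1 by edgeR (0 of 52, and 0 by DESeq2, 4 with p under 0.05 before adjustment), beside 4.67% of all genes. With siRNA 2, 2 were higher and 6 lower, beside 6.17% and 3.55% of all genes. Both of those that rose, Hist1h2ba (log2 fold change 0.72, edgeR adjusted p = 5.93e-05) and Hist1h2aa (0.47, edgeR adjusted p = 0.00487), are histone genes known from the testis. They are in this list because it was taken by gene symbol, and no other gene of the list was called higher with siRNA 2. Hist2h4, on chromosome 3, fell by 0.26 on the log2 scale (edgeR adjusted p = 0.00143) and Hist1h2af fell by 0.28 (edgeR adjusted p = 0.00301). Hist1h2aa was named after its values were seen. The medians of the core histone genes were 0.02 with siRNA 1 and -0.11 with siRNA 2, and those of the 5 replication-dependent H1 genes were -0.01 and -0.10. Between the siRNAs the medians were -0.12 for core and -0.09 for H1 genes. In that comparison 2 core genes, again Hist1h2ba and Hist1h2aa, were higher with siRNA 2 and 10 were lower. Beside these stand 4.49% and 2.96% of all genes. Without replicate 3 of siRNA 2, 2 core genes were higher and 4 lower against control, and the median was -0.08. With TMM factors 10 were lower.

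**Figure D5:**
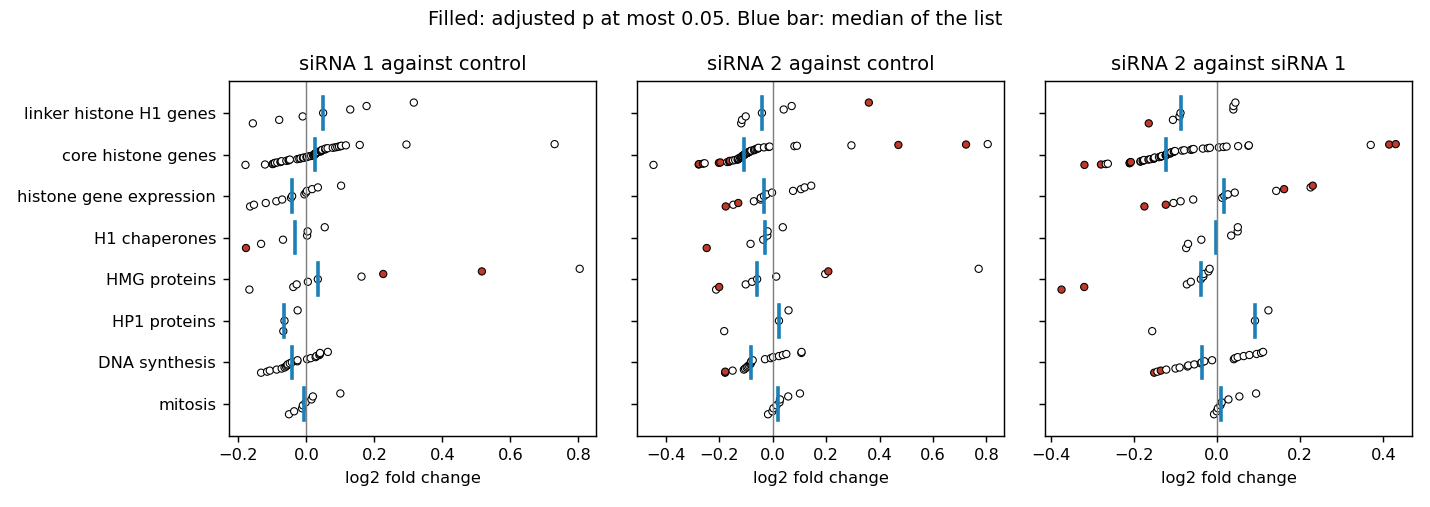
Log2 fold changes of the H1 genes and of genes of related function in the 3 comparisons (x axis: log2 fold change from edgeR; points: genes, filled at an adjusted p of at most 0.05; blue bars: median of each list). With siRNA 2 most core histone genes and replication-dependent H1 genes lie left of 0, and with siRNA 1 they lie on both sides of it.

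Genes that make or use H1 were counted in the same way. Over all genes, the shares called lower by edgeR were 1.97% with siRNA 1 and 3.55% with siRNA 2. Of 13 genes for histone gene transcription and mRNA 3′ end processing, 0 were called with siRNA 1 by edgeR (1 with p under 0.05 before adjustment, 0 by DESeq2) and 2 were lower with siRNA 2: Sympk, a scaffold of the cleavage machinery (-0.18, edgeR adjusted p = 0.0131), and Pou2f1, which encodes the octamer-binding factor OCT1 (-0.13, edgeR adjusted p = 0.0445). Of 6 H1 chaperones, Nap1l1 fell with siRNA 1 (by 0.18 on the log2 scale, edgeR adjusted p = 0.0184) and with siRNA 2 (by 0.25, edgeR adjusted p = 0.000357). NAP1L1 is a histone chaperone, and the H1 chaperone Nasp was at 584 ± 7.53 CPM in control with log2 fold changes of 0.00 and 0.04.

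HMG proteins compete with H1 for nucleosomes. Of 9 genes, Hmgb2 rose with siRNA 1 (0.23, edgeR adjusted p = 0.00215) and with siRNA 2 (0.21, edgeR adjusted p = 0.00299). Hmgb3 rose with siRNA 1 (0.52, edgeR adjusted p = 0.0013), and Hmga1 fell with siRNA 2 by 0.20 (edgeR adjusted p = 0.0108). Over all genes, edgeR called 2.71% higher with siRNA 1, and 6.17% higher and 3.55% lower with siRNA 2. None of the 3 HP1 genes, whose products bind H1 and methylated histone H3, was called in either contrast by edgeR (0 and 1 with siRNA 1 and siRNA 2 had p under 0.05 before adjustment, and 0 and 0 by DESeq2). With the replicate number as a block, edgeR called 1 HP1 gene lower with siRNA 2.

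S phase genes were examined because replication-dependent H1 RNA follows DNA synthesis. Of 21, 0 were called with siRNA 1 by edgeR (1 with p under 0.05 before adjustment, 0 by DESeq2) and 2 were lower with siRNA 2: Cdt1, a replication licensing factor (-0.18, edgeR adjusted p = 0.0143), and Ung, a uracil glycosylase (-0.18, edgeR adjusted p = 0.031). Over all genes, edgeR called 1.97% lower with siRNA 1 and 3.55% lower with siRNA 2. DESeq2 called 6 of the S phase genes with siRNA 2. Their medians were -0.04 and -0.08. Of 8 mitosis genes 0 were called in either contrast by edgeR (0 and 0 with siRNA 1 and siRNA 2 had p under 0.05 before adjustment, and 0 and 0 by DESeq2). The part of the cell cycle in the H1 values was not tested.

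The neighbours of each member are mostly other histone genes. Beside Hist1h1a are Hist1h3a and, across a gap of 169367 bases, Hist1h2ba. Beside Hist1h1b are Hist1h2bn and Hist1h3i, beside Hist1h1c are Hist1h4c and Hist1h3c, beside Hist1h1d are Hist1h4f and Hist1h3e, and beside Hist1h1e are Hist1h4d and Hist1h2ac. Hist1h2ba was the one of these called against control, and only with siRNA 2. Between the siRNAs, Hist1h3i (-0.21, edgeR adjusted p = 0.0174), Hist1h3c (-0.15, edgeR adjusted p = 0.0407) and Hist1h3e (-0.18, edgeR adjusted p = 0.00565) were lower with siRNA 2, as was Hist1h2be (-0.21, edgeR adjusted p = 0.00672), which overlaps Hist1h1e. Hist1h2ba, beside Hist1h1a, went the other way and was higher with siRNA 2 (0.43, edgeR adjusted p = 0.00949). Hist1h3c lies beside Hist1h1c, the member called in that comparison, but Hist1h4c on the other side of Hist1h1c was not called (-0.12, edgeR adjusted p = 0.160). Hist1h3i and Hist1h3e lie beside Hist1h1b and Hist1h1d, which were not called. Neither neighbour of H1f0, Triobp or Gcat, was called. H1fx lies between Hmces, 43792 bases away, and Gm44168, 4554 bases away. Hmces, whose product shields abasic sites in single-stranded DNA, fell by 0.50 with siRNA 1 (edgeR adjusted p = 7.53e-05) and by 0.52 with siRNA 2 (edgeR adjusted p = 2.17e-05). Gm44168 was not called with siRNA 1 (0.46, edgeR adjusted p = 0.142) or siRNA 2 (0.02, edgeR adjusted p = 0.976), and neither was H1fx itself.

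The genes whose levels followed the members most closely were ranked by Pearson's r over the 11 libraries among 7939 genes, as a description with no test. For the summed replication-dependent H1 level these were Wasl (r = 0.940), Lap3 (r = 0.923) and Hat1 (r = 0.908), the last a histone acetyltransferase of newly made histones. For H1f0 they were Tnrc6a (r = 0.920), Specc1l (r = 0.909) and Map6 (r = 0.896), and for H1fx they were Bax (r = 0.937), Abhd10 (r = 0.917) and Mknk2 (r = 0.910). The highest of 7939 values over 11 libraries is high for most genes, and the libraries share their scaling.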

How the data were processed

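RNA-seq libraries were made from total RNA after ribosomal RNA depletion and sequenced as paired reads. Per the labels and the study's methods, the authors trimmed reads with cutadapt, aligned them to GRCm38 (mm10) with STAR, removed PCR duplicates with Picard and counted reads per Ensembl gene with featureCounts. Tool versions are not given in the sources used here. Removing duplicates can compress the counts of short, abundant genes such as histones. The deposited values are raw counts, 1 file per library, for 54838 genes, of which 54809 are in the GENCODE annotation used. In 10 of the 11 files the closing summary lines follow another counter's layout and were set aside. They hold 46.5% to 51.1% of all lines' reads, including 787556 to 974693 that aligned to more than 1 place. Groups were taken from the treatment labels.

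The test was edgeR's glmQLFTest (edgeR 4.0.16, R 4.3.3) for the 16073 genes above 1 CPM in at least 4 libraries, on the 3 groups, with library sizes set to total counts, since the study's methods state library size, and with Benjamini-Hochberg adjustment. The SE is the log2 fold change divided by the root of F, and intervals are at 95%. The step was tested on simulated data. Alternatives were TMM factors, DESeq2 1.42.0, exactTest, 2 other filters, 2 groups only, the replicate number as a block, Gm26917 left out of library sizes (4.87% to 6.34% of counts) and each replicate left out. RefSeq lengths, left-out replicates for the ratios and lists without siRNA 2 replicate 3 were added after seeing the data.

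The members and gene lists were chosen with earlier results of these data known. Apart from the members, up to 3 called genes per list, the nearest tested gene on each side of a member and the 3 genes most correlated with a pattern (log2 of CPM + 1, mean log2 CPM of at least 4) were named. Same-numbered libraries did not deviate together (mean r = 0.0107 over 10 pairs, against -0.00358 over 30 other pairs), so the numbers were not treated as pairs. Replicates of a group differed beyond counting noise, so no library was a duplicate.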

Additional observations from a re-analysis of the deposited data

Results flagged for a closer look

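Single libraries stood apart from the other 3 of their group by Dixon's test at the 95% level. Hist1h1b was lowest in replicate 1 of siRNA 1, at 199.9 CPM. Hist1h1c (249.1 CPM) and Hist1h1d (296.6 CPM) were lowest in replicate 3 of siRNA 2. There were 16 groups tested, and chance alone flags about 1 group in 20. The 2 siRNAs, which target the same gene, differed in Hist1h1c (log2 difference -0.16, siRNA 2 minus siRNA 1, edgeR adjusted p = 0.0116), with all 4 siRNA 2 libraries below all 4 siRNA 1 libraries.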

How the results depend on the processing

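With siRNA 1 the number of members called was 0 in the main test and 1 with TMM factors, with DESeq2, with 2 groups only and with the replicate block; left-out replicates gave 0 to 1. With siRNA 2 it was 1 in the main test and 0 with DESeq2; left-out replicates gave 0 to 1. Between the siRNAs, Hist1h1c was called in all 16 alternatives (edgeR or DESeq2 adjusted p from 0.00733 to 0.0496). The replicate block made Hist1h1b with siRNA 1 a call (-0.18, edgeR adjusted p = 0.0282) and changed no other member's call. Among the related lists with siRNA 2 against control, the block lowered some counts of genes called lower. These went from 6 to 5 for core histone genes, from 2 to 1 for histone gene expression and from 2 to 1 for S phase genes. The block raised that count from 0 to 1 for HP1 genes and from 3 to 4 for ESC markers. With siRNA 1 the block called 1 differentiated lineage marker higher against 0 without it, and 4 ESC markers lower against 5. Fold changes of members near 0 reversed when 1 library was left out: Hist1h1d with siRNA 1 (0.0353 without control replicate 2, lowest of the left-out values -0.0387), H1fx with siRNA 2 (-0.0043 without control replicate 1, highest 0.1933), Hist1h1b between the siRNAs (-0.0020 without siRNA 1 replicate 1, highest 0.0751) and H1f0 between the siRNAs (-0.0558 without siRNA 2 replicate 3, highest 0.1107). Leaving Gm26917 out of the library sizes raised the summed H1 level to 1677, 1668 and 1603 CPM in control, siRNA 1 and siRNA 2. RefSeq lengths changed the control levels per kilobase of Hist1h1b to 308, Hist1h1c to 403, Hist1h1d to 441, Hist1h1e to 325 and H1f0 to 7.41 CPM per kilobase. The number of separate ratios was 6 to 8 with siRNA 1, 6 to 7 with siRNA 2 and 5 to 7 between the siRNAs when a replicate was left out. Over all genes, 751, 1562 and 1196 were called in the main test (siRNA 1, siRNA 2 and between the siRNAs), against 521, 958 and 738 with DESeq2, and as few as 355 and 807 against control when a control replicate was left out (replicate 2 and replicate 3) and 724 between the siRNAs without siRNA 1 replicate 2. The causes were not tested. H1f0 and H1fx rest on 115 to 227 reads per library, which limits the size of change that could be detected in them.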
